A study of Homo sapiens with 6 samples.

Results

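The older members of the ERVL family of endogenous retroviruses were followed through 84 repeat names in total RNA of H9 cells, an established human embryonic stem cell line. They were picked by a rule on names among the 7383 names of the deposited CPM table, which lists names with at least 10 counts over the 6 libraries. The rule itself uses no measured value. The names are the MLT2B to MLT2F LTRs, the internal regions ERVL-B4-int, ERVL-E-int, ERVL47-int and HERVL followed by a number, and the LTR-numbered and MER-numbered elements of the same family, with HERVL-int, ERVL-int and the MLT2A LTRs left out. By role they fell into 14 internal regions, 10 MLT2 LTRs, 18 LTRs of the LTR16 and LTR33 groups, 27 other LTR-numbered LTRs and 15 MER-numbered LTRs. All 84 passed the filter on low counts. Names with a lower-case suffix, LTR40a, LTR40b, LTR40c, LTR84a and LTR84b, lay outside the rule, and LTR33A_v matched it but had 0 counts and was not in the CPM table.

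ERVL elements are class III endogenous retroviruses, which entered the genome before or early in the spread of placental mammals. A complete copy has an internal region with genes for retroviral proteins between a pair of long terminal repeats (LTRs), which hold the promoter. Recombination between the LTRs removes the internal region, so most old copies are lone LTRs. The youngest human ERVL elements, HERVL-int with its MLT2A LTRs, are known for transcription in cleavage-stage embryos, while the older members are mostly decayed copies in introns and between genes.

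The 6 libraries formed 3 groups of 2. RSeT+DT cells were grown in RSeT, a commercial medium for a naive-like state, with 10 nM DZNep and 5 nM TSA until collection after 48 hours. RSeT cells had the same medium without these agents, and primed cells were kept in mTeSR medium. DZNep blocks S-adenosylhomocysteine hydrolase and lowers the Polycomb methyltransferase EZH2, and TSA inhibits histone deacetylases. Both were given together, so their effects cannot be told apart. The labels describe all groups as wild-type H9. Nothing in them ties a replicate to its own culture, so the p-values speak of the spread between libraries, which may be technical.

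Counts over all listed repeats ranged between 11520770 and 38312112 a library, and those of the 84 members between 81238 and 328385. The deepest library was RSeT replicate 1. Scaled to library totals, the spread of replicates over the members was above sampling noise (chi-square per degree of freedom 2.17 for RSeT+DT, 2.97 for RSeT and 3.05 for primed cells). A shift shared by all members between replicates enters these values and was not taken out. Repeats known for a cell state served as markers, since gene counts were not used here. HERVH-int and LTR7, known from pluripotent cells, held 13.0% to 13.4% of repeat counts in RSeT+DT, 8.29% to 8.53% in RSeT and 2.71% to 3.01% in primed libraries. A naive-like list of 6 names (LTR5_Hs, HERVK-int, LTR7Y and the SVA_D, SVA_E and SVA_F elements) held 2.33% to 2.40% in RSeT+DT, 2.59% to 2.67% in RSeT and 0.310% to 0.322% in primed libraries. Its names differed unequally. HERVK-int had a mean of 19649 CPM in RSeT and 340 CPM in primed cells, while SVA_D had 1390 CPM in RSeT and 1398 CPM in primed cells. A trophoblast list of 10 names held 0.243% to 0.246% in RSeT+DT, 0.269% to 0.276% in RSeT and 0.203% to 0.212% in primed libraries. Its names did not share a direction. In mean CPM LTR10A (50.8 in RSeT, 63.1 in primed cells), LTR2B (53.1 and 56.6) and MER21A (304.3 and 337.3) were lower in RSeT cells. The other names of the list were higher, with LTR17 at 453.6 CPM in RSeT and 168.3 CPM in primed cells. A list known from cleavage-stage embryos (HERVL-int, MLT2A1, MLT2A2 and LTR12C) held 0.318% to 0.319% in RSeT+DT, 0.362% to 0.373% in RSeT and 0.283% to 0.296% in primed libraries. Against interspersed repeats and satellites alone the order of RSeT+DT and RSeT turned round for the naive-like list, at 3.76% to 3.79% in RSeT+DT and 3.56% to 3.73% in RSeT libraries, and for the trophoblast list, at 0.388% to 0.393% in RSeT+DT and 0.376% to 0.380% in RSeT libraries, while the cleavage-stage list overlapped between them. No marker was at 0: the lowest value was 28.9 CPM, for LTR7Y in a primed library. The part of cell state mixtures in the results was not tested.

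Together the 84 members made up a small share of the repeat counts. The share was 0.695% ± 0.0146 in RSeT+DT cells, 0.872% ± 0.0213 in RSeT cells and 0.861% ± 0.0269 in primed cells (SD, n = 2 each). Against interspersed repeats and satellites alone, with small RNA, ribosomal RNA and simple repeats left out, the share was 1.11% ± 0.0033 for RSeT+DT cells, 1.21% ± 0.016 for RSeT cells and 1.39% ± 0.0023 for primed cells (SD, n = 2 each). RSeT+DT was lowest on both denominators. RSeT (0.857% and 0.887%) and primed libraries (0.842% and 0.880%) overlapped against all repeats. Primed libraries were highest against interspersed repeats and satellites. HERVH-int and LTR7 filled unequal parts of this second denominator. Their mean part was 4.60% for primed cells, 11.7% for RSeT medium without the agents and 21.0% with them. A larger part lowers the share of other names. The order with HERVH-int and LTR7 left out of the denominator was not tested. In bulk RNA, fewer cells of a type and less RNA per cell cannot be told apart. Members are compared only through differences between groups, since a name sums all its genomic copies and no length belongs to it. The best covered names were ERVL-E-int, LTR33 and ERVL-B4-int, which together had 18% of member counts, and the least covered were LTR18C with 299 and LTR47B with 313 counts over the 6 libraries. The median member had 6134 counts.

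The zero line of these comparisons depended on the scaling. Fold changes are log2 values of edgeR's quasi-likelihood fit with TMM scaling over all 4665 tested features, of which 1136 are interspersed repeats, and a call is an adjusted p under 0.05. On this scale the median interspersed repeat lay at -0.22 in RSeT+DT against RSeT, at 0.16 in RSeT against primed cells and at -0.07 in RSeT+DT against primed cells. A second scaling, called interspersed scaling here, used interspersed repeats and satellites alone and placed their median near 0. It moved the median fold change by 0.22 in RSeT+DT against RSeT, by -0.16 in RSeT against primed cells and by 0.06 in RSeT+DT against primed cells. Scaling to library totals moved it by -0.15 in RSeT+DT against RSeT, by -0.13 in RSeT against primed cells and by -0.29 in RSeT+DT against primed cells. Directions are those under TMM unless another scaling is named, and ratios of counts within a library, which no scaling touches, are given for related members.

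**Figure D1:**
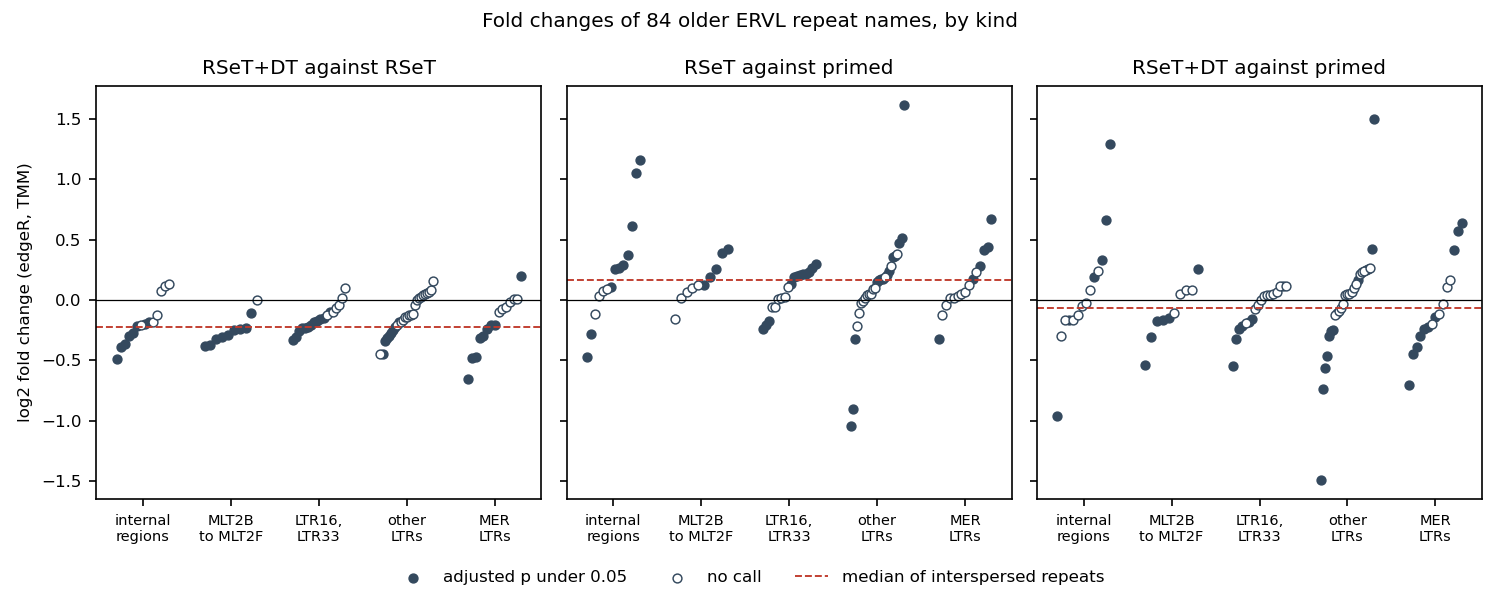
Log2 fold change of the 84 older ERVL names (y axis, TMM scaling) in 3 comparisons, sorted within each role on the x axis, with filled points at an adjusted p under 0.05 and open points without a call. The dashed line is the median of tested interspersed repeats, and the highest and lowest members in RSeT against primed cells are LTR80B at 1.62 and LTR47B at -1.04.

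RSeT was compared with primed cells to see which older ERVL elements differ between naive-like and primed pluripotency. LTR80B was 3.07-fold, MER76-int 2.24-fold and LTR52-int 2.08-fold higher in RSeT cells, and these were the only members past 2-fold upward. LTR47B, at 0.486-fold, was the only one past 2-fold downward. Among interspersed repeats 4.93% were past 2-fold upward and 0.528% downward, and among all tested features 5.57% upward and 7.82% downward. Of the 84 members, 38 were higher and 9 lower in RSeT cells, with a median of 0.12. The background among tested interspersed repeats was 50.8% higher and 8.01% lower, and among all tested features 22.8% higher and 23.8% lower. With interspersed scaling 13 members were higher and 26 lower, against 29.8% and 26.3% of interspersed repeats. In deposited CPM both RSeT libraries lay above both primed libraries in 23 members (27.4%) and below them in 34 (40.5%). Among interspersed repeats these shares were 42.1% above and 32.3% below, and among all tested features 24.4% and 49.2%. Calls that held under TMM, interspersed scaling and library totals numbered 13 higher (15.5%) and 9 lower (10.7%), against 28.7% and 8.01% of interspersed repeats. Both other scalings moved values down in this comparison, by -0.16 and -0.13. They could hardly undo a lower call made under TMM, so holding under them adds little to the lower calls.

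Among internal regions, which carry the retroviral genes, 8 of 14 were higher and 2 lower in RSeT cells under TMM. MER76-int had 20.3 and 21.3 CPM in RSeT+DT libraries, 21.2 and 20.9 CPM in RSeT libraries, and 9.38 and 11.4 CPM in primed libraries. Both groups in RSeT medium lay above both primed libraries. The log2 fold change of RSeT against primed cells was 1.16 (SE 0.11, edgeR's adjusted p = 2.73e-09). LTR52-int had 8.50 and 9.81 CPM in RSeT+DT libraries, 13.4 and 13.1 CPM in RSeT libraries, and 6.89 and 7.12 CPM in primed libraries. RSeT libraries were highest and primed libraries lowest, with no overlap, and the log2 fold change of RSeT against primed cells was 1.05 (SE 0.13, edgeR's adjusted p = 4.15e-07). HERVL32-int had 7.20 and 8.25 CPM in RSeT+DT libraries, 11.0 and 11.1 CPM in RSeT libraries, and 7.78 and 8.07 CPM in primed libraries, a log2 fold change of 0.61 for RSeT against primed cells (SE 0.14, edgeR's adjusted p = 0.00058). Each of these calls held under all 3 scalings and without any single library.

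The abundant internal regions differed less. ERVL-B4-int had 355.2 and 366.1 CPM in RSeT+DT libraries, 447.8 and 463.8 CPM in RSeT libraries, and 379.2 and 391.6 CPM in primed libraries. RSeT libraries were highest, and the log2 fold change against primed cells was 0.37 (SE 0.041, edgeR's adjusted p = 3.44e-08). ERVL-E-int had 443.5 and 463.0 CPM in RSeT+DT libraries, 606.9 and 630.5 CPM in RSeT libraries, and 551.4 and 574.4 CPM in primed libraries, with a log2 fold change of 0.27 for RSeT against primed cells (SE 0.043, edgeR's adjusted p = 1.2e-05). Both calls held under all 3 scalings. LTR53-int at 0.29, HERVL74-int at 0.26 and HERVL40-int at 0.10 were higher under TMM only, and HERVL40-int lay at -0.06 with interspersed scaling. Without single libraries these calls were also lost, with HERVL74-int at 0.22 without RSeT replicate 2 and 0.19 without primed replicate 1, LTR53-int at 0.27 without RSeT replicate 1 and 0.27 without primed replicate 2, and HERVL40-int at 0.08 without RSeT replicate 2, 0.10 without primed replicate 1 and 0.11 without primed replicate 2.

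Against this direction, LTR57-int and MER70-int were lower in RSeT cells. LTR57-int had 6.35 and 7.55 CPM in RSeT+DT libraries, 10.5 and 11.2 CPM in RSeT libraries, and 16.6 and 16.3 CPM in primed libraries, so the 3 groups stood in steps without overlap. The log2 fold change of RSeT against primed cells was -0.47 (SE 0.12, edgeR's adjusted p = 0.00192). MER70-int had 35.2 and 37.0 CPM in RSeT+DT libraries, 36.8 and 37.3 CPM in RSeT libraries, and 48.0 and 50.7 CPM in primed libraries, with a log2 fold change of -0.28 for RSeT against primed cells (SE 0.066, edgeR's adjusted p = 0.00114). ERVL47-int at -0.12, HERVL18-int at 0.03, HERVL66-int at 0.075 and MER68-int at 0.09 had no call.

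**Figure D2:**
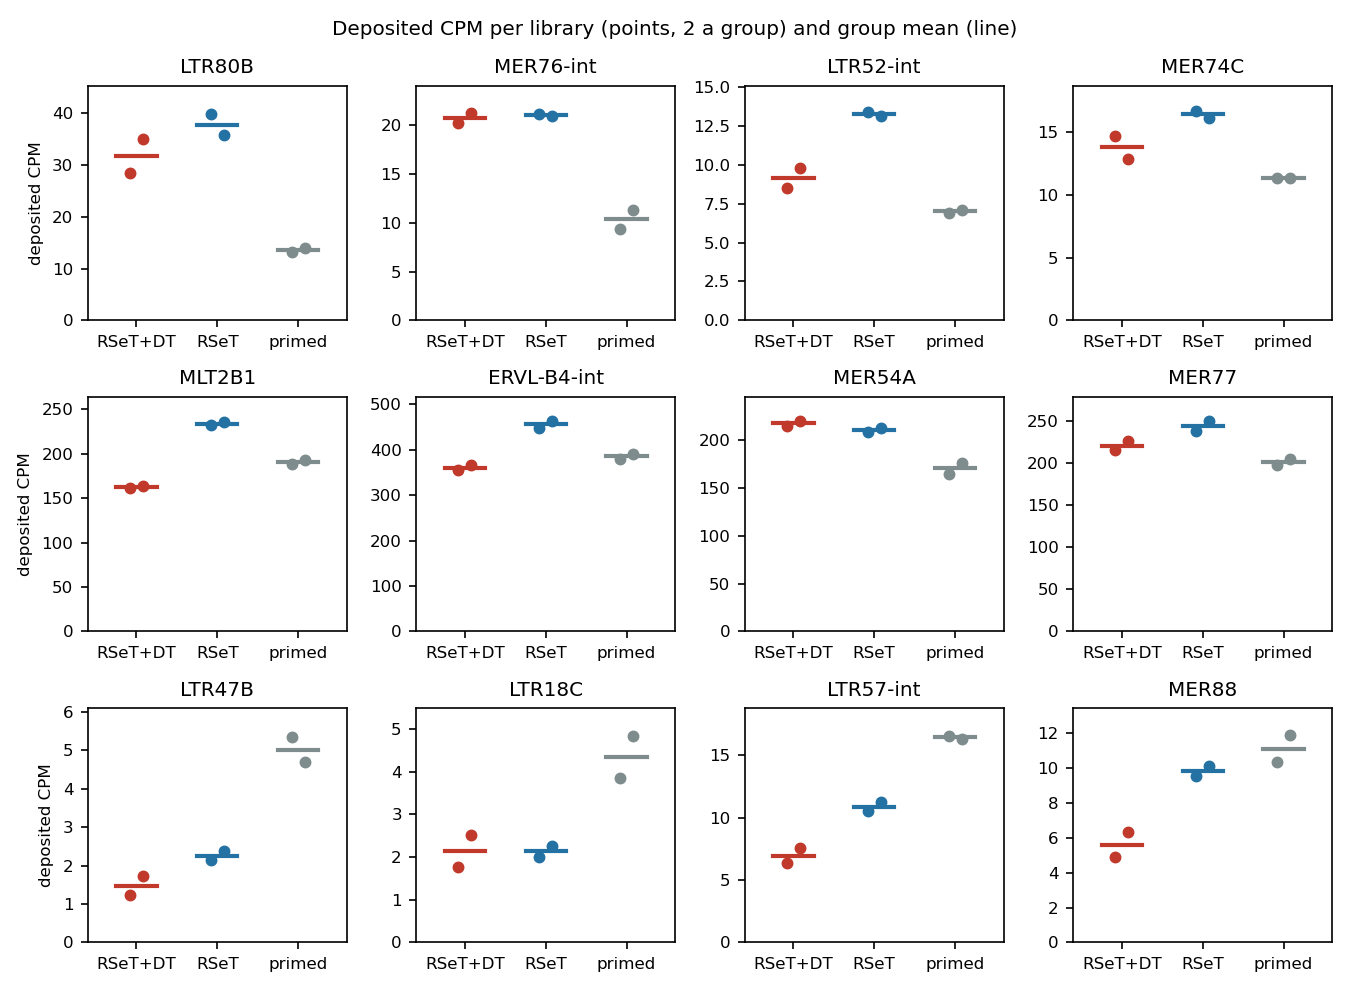
Deposited CPM (y axis, each panel from 0 on its own scale) of 12 older ERVL names in RSeT+DT, RSeT and primed libraries, with points for the 2 libraries of a group and a line for their mean. LTR80B, MER76-int and MER74C are high in both groups grown in RSeT medium, MLT2B1 and LTR52-int are highest in RSeT cells, and LTR57-int is lowest in RSeT+DT and highest in primed libraries.

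The MLT2B to MLT2F LTRs are the older relatives of the MLT2A LTRs. Of the 10, 5 were higher and none lower in RSeT than in primed cells under TMM, where 1 was higher and 3 lower with interspersed scaling. MLT2B1 had 160.9 and 163.9 CPM in RSeT+DT libraries, 231.9 and 236.1 CPM in RSeT libraries, and 188.9 and 192.8 CPM in primed libraries. RSeT libraries stood above both other groups, and the log2 fold change of RSeT against primed cells was 0.42 (SE 0.037, edgeR's adjusted p = 6.05e-10) under TMM and 0.26 with interspersed scaling, a call in both. MLT2B1 was the one MLT2 name with a call under all 3 scalings. MLT2F had 111.4 and 111.8 CPM in RSeT+DT libraries, 121.1 and 128.6 CPM in RSeT libraries, and 116.6 and 111.0 CPM in primed libraries. Its log2 fold change was 0.26 under TMM (SE 0.049, edgeR's adjusted p = 0.000122) and 0.09 with interspersed scaling, where it had no call. MLT2B3 at 0.19, MLT2D at 0.12 and MLT2E at 0.39 also passed under TMM and had no call with interspersed scaling. The MLT2D call was lost without RSeT replicate 2 (0.12) and primed replicate 1 (0.08), and the MLT2E call without RSeT replicate 2 (0.32) and primed replicate 2 (0.26). MLT2B2 at 0.10, MLT2B4 at 0.07, MLT2B5 at -0.16, MLT2C1 at 0.02 and MLT2C2 at 0.12 had no call. With interspersed scaling MLT2B4 at -0.09, MLT2B5 at -0.32 and MLT2C1 at -0.14 were lower in RSeT cells.

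In the LTR16 and LTR33 groups, 9 of 18 were higher and 3 lower in RSeT than in primed cells under TMM, and 1 was higher and 6 lower with interspersed scaling. LTR16 had 108.9 and 111.4 CPM in RSeT+DT libraries, 143.2 and 150.2 CPM in RSeT libraries, and 126.4 and 134.1 CPM in primed libraries, a log2 fold change of 0.30 for RSeT against primed cells (SE 0.044, edgeR's adjusted p = 2.99e-06). It was the one LTR16 name higher under all 3 scalings. LTR16D1, LTR16D2 and LTR16E1 went the other way under TMM. The other scalings kept these calls, which adds little, since both move values down in this comparison. LTR16D2 had 18.3 and 16.8 CPM in RSeT+DT libraries, 23.7 and 24.7 CPM in RSeT libraries, and 30.6 and 32.0 CPM in primed libraries. The groups stood in steps, and the log2 fold change of RSeT against primed cells was -0.24 (SE 0.087, edgeR's adjusted p = 0.025). LTR16E1 lay at -0.18 and LTR16D1 at -0.20. These 3 calls leaned on single libraries. LTR16D2 lost its call without RSeT replicate 1 (-0.21), RSeT replicate 2 (-0.24), primed replicate 1 (-0.24) or primed replicate 2 (-0.24). LTR16D1 lost it without RSeT replicate 2 (-0.14) or primed replicate 2 (-0.14), and LTR16E1 without RSeT replicate 1 (-0.13). LTR33, the name with the second most counts, lay at 0.03 with no call, and at -0.14, a call, with interspersed scaling.

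Of the 27 other LTR-numbered LTRs, 11 were higher and 3 lower in RSeT cells under TMM, and 3 were higher and 10 lower with interspersed scaling. LTR80B showed the largest upward difference of all members. It had 28.4 and 34.9 CPM in RSeT+DT libraries, 39.8 and 35.8 CPM in RSeT libraries, and 13.2 and 14.0 CPM in primed libraries, with a log2 fold change of 1.62 for RSeT against primed cells (SE 0.099, edgeR's adjusted p = 5.4e-13). Its sister LTR80A had 13.9 and 14.1 CPM in RSeT+DT libraries, 19.1 and 20.7 CPM in RSeT libraries, and 26.0 and 24.1 CPM in primed libraries, a log2 fold change of -0.22 without a call under TMM. LTR55 at 0.52 (SE 0.097, edgeR's adjusted p = 0.000104) and LTR18A at 0.47 (SE 0.12, edgeR's adjusted p = 0.00247) were higher under all 3 scalings. LTR55 had 18.3 and 18.5 CPM in RSeT+DT libraries, 25.9 and 30.7 CPM in RSeT libraries, and 21.3 and 21.5 CPM in primed libraries.

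LTR47B and LTR18C had few reads and lay lower in RSeT cells. LTR47B had 16 and 20 counts in RSeT+DT libraries, 82 and 41 counts in RSeT libraries, and 90 and 64 counts in primed libraries, which is 1.22 and 1.74 CPM in RSeT+DT, 2.14 and 2.39 CPM in RSeT, and 5.35 and 4.70 CPM in primed libraries. Both RSeT libraries lay below both primed ones, and the log2 fold change was -1.04 (SE 0.22, edgeR's adjusted p = 0.000366). LTR18C had 23 and 29 counts in RSeT+DT libraries, 77 and 39 counts in RSeT libraries, and 65 and 66 counts in primed libraries, a log2 fold change of -0.90 for RSeT against primed cells (SE 0.23, edgeR's adjusted p = 0.00232). Both calls held without any single library. LTR57, the LTR that shares its number with LTR57-int, lay at -0.32 (SE 0.095, edgeR's adjusted p = 0.00699), and lost its call without RSeT replicate 1 (-0.31) or primed replicate 2 (-0.22). LTR40A1 was higher under TMM at 0.35, a call that was lost without primed replicate 2 (0.27).

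Of the 15 MER-numbered LTRs, 5 were higher and 1 lower in RSeT cells under TMM. MER74C had 14.7 and 12.8 CPM in RSeT+DT libraries, 16.7 and 16.1 CPM in RSeT libraries, and 11.3 and 11.3 CPM in primed libraries, a log2 fold change of 0.67 for RSeT against primed cells (SE 0.12, edgeR's adjusted p = 3.84e-05). MER54A had 215.5 and 220.3 CPM in RSeT+DT libraries, 209.1 and 213.2 CPM in RSeT libraries, and 165.3 and 176.5 CPM in primed libraries, a log2 fold change of 0.44 (SE 0.038, edgeR's adjusted p = 4.22e-10). MER77 had 215.6 and 226.6 CPM in RSeT+DT libraries, 239.2 and 251.1 CPM in RSeT libraries, and 198.7 and 205.0 CPM in primed libraries, a log2 fold change of 0.41 (SE 0.037, edgeR's adjusted p = 9.87e-10). In all 3, every library of the groups in RSeT medium lay above both primed libraries. MER74B went the other way, with 86.0 and 87.2 CPM in RSeT+DT libraries, 99.1 and 102.0 CPM in RSeT libraries, and 135.2 and 140.9 CPM in primed libraries, and a log2 fold change of -0.33 for RSeT against primed cells (SE 0.045, edgeR's adjusted p = 1.58e-06). These 4 calls held under all 3 scalings, which adds little for MER74B, since the other scalings move values down in this comparison.

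RSeT+DT was compared with RSeT cells to see what DZNep and TSA changed in the same medium. Under TMM nearly all called members lay lower in RSeT+DT cells, 45 of 84, and MER54A alone was higher, but this direction was that of repeats at large. The background among tested interspersed repeats was 54.7% lower and 5.55% higher, and among all tested features 17.4% lower and 25.0% higher. The median member lay at -0.18, against -0.22 for interspersed repeats, and no member passed 2-fold. With interspersed scaling 21 members were higher and 3 lower in RSeT+DT cells, against 22.4% and 20.7% of interspersed repeats. MER70C, MER88 and MLT2B1 were the 3 members (3.57%) lower under TMM, interspersed scaling and library totals, against 20.6% of interspersed repeats. MLT2B3 and LTR16A had opposite calls under TMM and interspersed scaling.

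The internal regions had 8 of 14 lower and none higher under TMM, and 3 higher and none lower with interspersed scaling. LTR57-int at -0.49 (SE 0.14, edgeR's adjusted p = 0.00792), LTR52-int at -0.39 (SE 0.13, edgeR's adjusted p = 0.0221) and HERVL32-int at -0.37 (SE 0.14, edgeR's adjusted p = 0.0405) had the lowest values, and both RSeT+DT libraries of each lay below both RSeT libraries in CPM. None of the 3 had a call with interspersed scaling, where LTR57-int lay at -0.27, LTR52-int at -0.17 and HERVL32-int at -0.15. The LTR57-int call was lost without RSeT+DT replicate 1 (-0.38). The LTR52-int call was lost without RSeT replicate 1 (-0.36) or 2 (-0.40) or RSeT+DT replicate 1 (-0.30). The HERVL32-int call was lost without any one of the 4 libraries compared, at -0.29 without the first RSeT+DT library, -0.43 without the second, -0.36 without the first RSeT library and -0.37 without the second. ERVL-E-int at -0.30 (SE 0.043, edgeR's adjusted p = 3.59e-06), HERVL40-int at -0.27, MER68-int at -0.22, HERVL18-int at -0.20 and ERVL-B4-int at -0.18 were also lower under TMM, and lay between -0.07 and 0.04 with interspersed scaling, with no call. The MER68-int call was lost without RSeT replicate 1 (-0.18), and the HERVL18-int call without RSeT replicate 1 (-0.22) or 2 (-0.18) or RSeT+DT replicate 1 (-0.16).

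MER76-int at 0.13, MER70-int at 0.12 and HERVL74-int at 0.07 had no call under TMM and were the 3 internal regions higher with interspersed scaling, where MER76-int lay at 0.35, MER70-int at 0.33 and HERVL74-int at 0.29. HERVL74-int had 30.5 and 34.1 CPM in RSeT+DT libraries, 32.5 and 36.2 CPM in RSeT libraries, and 29.2 and 33.4 CPM in primed libraries, so its groups overlapped in CPM. The other internal regions without a call in RSeT+DT against RSeT under TMM were LTR53-int at -0.21, ERVL47-int at -0.18 and HERVL66-int at -0.12.

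The MLT2 LTRs had 9 of 10 lower under TMM, with MLT2F at -0.0036 as the exception, and 1 lower and 2 higher with interspersed scaling. MLT2B1 fell by 0.37 (SE 0.038, edgeR's adjusted p = 1.75e-08) under TMM and at -0.15, also a call, with interspersed scaling, and the TMM call held without any single library. MLT2B5 had 11.7 and 14.1 CPM in RSeT+DT libraries, 18.1 and 19.3 CPM in RSeT libraries, and 24.2 and 21.1 CPM in primed libraries. The 3 groups did not overlap, and the log2 fold change of RSeT+DT against RSeT was -0.38 (SE 0.12, edgeR's adjusted p = 0.0124), lost without RSeT+DT replicate 1 (-0.27) or RSeT replicate 2 (-0.35). MLT2C1 at -0.32, MLT2D at -0.29, MLT2B2 at -0.25, MLT2B4 at -0.24 and MLT2C2 at -0.23 passed under TMM and lay between -0.10 and -0.01 with interspersed scaling, with no call. MLT2C2 lost its call without RSeT+DT replicate 2 (-0.17). MLT2E at -0.31 passed under TMM and lost its call without RSeT+DT replicate 2 (-0.16) or RSeT replicate 2 (-0.22), and with the replicate number as a block. MLT2B3 had 238.6 and 239.8 CPM in RSeT+DT libraries, 278.3 and 295.6 CPM in RSeT libraries, and 271.0 and 280.2 CPM in primed libraries, and its log2 fold change was -0.11 with a call under TMM and 0.11 with a call under interspersed scaling. The TMM call of MLT2B3 was also lost without RSeT+DT replicate 2 (-0.07), RSeT replicate 2 (-0.07), primed replicate 1 (-0.10) or primed replicate 2 (-0.10).

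Among the LTR16 and LTR33 groups 12 of 18 were lower and none higher in RSeT+DT than in RSeT cells under TMM, and 5 were higher and none lower with interspersed scaling. The lowest was LTR16D, with 31.2 and 28.4 CPM in RSeT+DT libraries, 41.3 and 42.6 CPM in RSeT libraries, and 45.9 and 45.1 CPM in primed libraries, a log2 fold change of -0.33 for RSeT+DT against RSeT (SE 0.079, edgeR's adjusted p = 0.00129) and -0.11 without a call under interspersed scaling. Of the 27 other LTR-numbered LTRs, 8 were lower under TMM, and 6 higher and none lower with interspersed scaling. LTR55 at -0.45 (SE 0.10, edgeR's adjusted p = 0.00102) and LTR80A at -0.34 (SE 0.11, edgeR's adjusted p = 0.0142) had the lowest called values, and neither had a call with interspersed scaling. LTR80A lost its call without RSeT+DT replicate 1 (-0.34), RSeT+DT replicate 2 (-0.32) or RSeT replicate 2 (-0.30). LTR80B lay at -0.12 with no call under either scaling.

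The MER-numbered LTRs held the members most apart from the rest in this comparison. MER88 had 4.90 and 6.34 CPM in RSeT+DT libraries, 9.58 and 10.1 CPM in RSeT libraries, and 10.3 and 11.9 CPM in primed libraries. RSeT+DT libraries were lowest, and the log2 fold change against RSeT cells was -0.66 (SE 0.16, edgeR's adjusted p = 0.0016) under TMM and -0.44 with a call under interspersed scaling. The TMM call was lost without RSeT+DT replicate 1 (-0.49). MER70C had 13.3 and 15.02 CPM in RSeT+DT libraries, 21.7 and 22.2 CPM in RSeT libraries, and 20.3 and 19.0 CPM in primed libraries, a log2 fold change of -0.48 for RSeT+DT against RSeT (SE 0.11, edgeR's adjusted p = 0.000825) under TMM and -0.26 with a call under interspersed scaling. MER68C, at -0.48 (SE 0.12, edgeR's adjusted p = 0.00254), had no call with interspersed scaling. MER54A was higher in RSeT+DT cells, at 0.20 (SE 0.038, edgeR's adjusted p = 9.47e-05) under TMM and 0.42 with interspersed scaling, and it lay at 0.05 with no call under library totals. It was the one member (1.19%) whose RSeT+DT libraries both lay above both RSeT libraries in CPM, against 4.67% of interspersed repeats and 28.9% of all tested features. In 76 of 84 members (90.5%) both lay below, against 85.9% of interspersed repeats and 41.9% of all tested features.

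**Figure D3:**
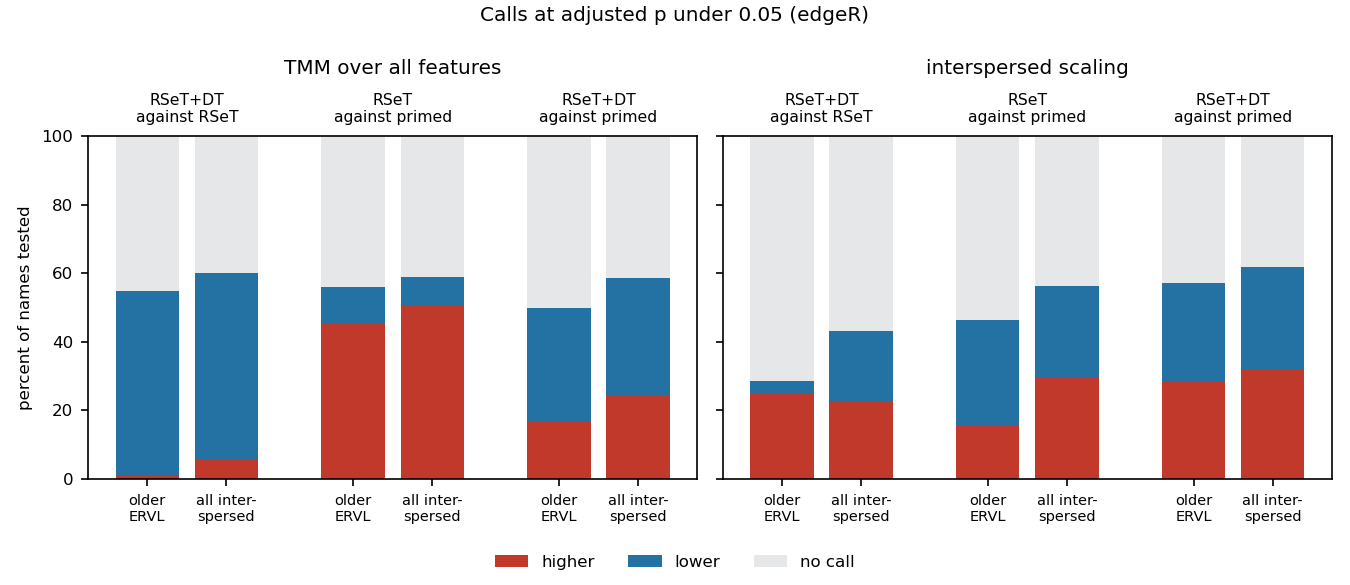
Percent of names with a call (y axis) in 3 comparisons, higher in red and lower in blue, for the 84 older ERVL names and all tested interspersed repeats, under TMM over all features (left) and interspersed scaling (right). The members' bars follow those of interspersed repeats under TMM, and the main direction in RSeT+DT against RSeT turns from lower (45 of 84) to higher (21 of 84) with the scaling.

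RSeT+DT was also set against primed cells. A few names, such as LTR80B and MER76-int, were high in RSeT medium with or without the agents. More members were lower than higher in RSeT+DT cells under TMM, as among interspersed repeats. Under TMM 14 members were higher and 28 lower in RSeT+DT cells, with a median of -0.04. The background among interspersed repeats was 24.4% higher and 34.3% lower, and among all tested features 25.1% higher and 20.6% lower. With interspersed scaling 24 members were higher and 24 lower, against 32.1% and 29.6% of interspersed repeats. Calls that held under TMM, interspersed scaling and library totals numbered 5 higher (LTR52-int, LTR80B, MER54A, MER76-int and MER77) and 24 lower. These are 5.95% and 28.6% of the members, against 10.5% and 29.4% of interspersed repeats. This comparison shares its libraries with the other comparisons, so its values are not independent of theirs.

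LTR80B lay at 1.50 (SE 0.11, edgeR's adjusted p = 1.74e-11), MER76-int at 1.30 (SE 0.12, edgeR's adjusted p = 1.94e-09) and LTR52-int at 0.67 (SE 0.16, edgeR's adjusted p = 0.00102) in RSeT+DT against primed cells. MER54A at 0.64 (SE 0.039, edgeR's adjusted p = 5.18e-13), MER74C at 0.57 (SE 0.13, edgeR's adjusted p = 0.000893) and MER77 at 0.42 (SE 0.039, edgeR's adjusted p = 1.67e-09) followed. In each of these 6 both RSeT+DT libraries lay above both primed libraries in CPM. That is 7.14% of the members, against 14.5% of interspersed repeats and 20.2% of all tested features. In 78.6% of the members both lay below, against 71.0% of interspersed repeats and 54.5% of all tested features. HERVL74-int at 0.33, MLT2F at 0.25 and ERVL-B4-int at 0.19 were higher under TMM, but ERVL-B4-int had lower CPM in RSeT+DT than in primed libraries and lay at -0.10 with no call under library totals. MLT2F, with overlapping CPM, lay at -0.03 with no call under library totals.

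On the low side LTR47B lay at -1.49 (SE 0.28, edgeR's adjusted p = 8.1e-05), LTR57-int at -0.96 (SE 0.14, edgeR's adjusted p = 5.22e-06) and MER88 at -0.70 (SE 0.17, edgeR's adjusted p = 0.00119) in RSeT+DT against primed cells. LTR18C, at -0.74 (SE 0.27, edgeR's adjusted p = 0.0246), lost its call without RSeT+DT replicate 1 (-0.51) or primed replicate 2 (-0.60). LTR80A at -0.56 (SE 0.11, edgeR's adjusted p = 0.00023), LTR16D2 at -0.55 (SE 0.10, edgeR's adjusted p = 8.2e-05), MLT2B5 at -0.54 (SE 0.12, edgeR's adjusted p = 0.000849) and LTR57 at -0.46 (SE 0.11, edgeR's adjusted p = 0.00106) were lower with no overlap in CPM. Of the MLT2 LTRs, MLT2B5, MLT2C1 at -0.30, MLT2B4 at -0.18, MLT2D at -0.17 and MLT2B2 at -0.15 were lower and MLT2F was higher under TMM. The MLT2D call was lost without primed replicate 2 (-0.11). The MLT2B2 call was lost without RSeT+DT replicate 1 (-0.09), RSeT replicate 2 (-0.13), primed replicate 1 (-0.15) or primed replicate 2 (-0.14).

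Ratios of counts within a library set an internal region against the LTR of the same number and do not depend on the scaling. MER76-int had 0.343 and 0.333 counts per MER76 count in RSeT+DT libraries, 0.276 and 0.258 in RSeT libraries, and 0.125 and 0.146 in primed libraries. All 3 groups were apart, with RSeT+DT highest. LTR52-int per LTR52 was 0.175 and 0.192 in RSeT+DT libraries, 0.250 and 0.235 in RSeT libraries, and 0.120 and 0.118 in primed libraries, so it was highest in RSeT cells. LTR57-int per LTR57 was 0.403 and 0.460 in RSeT+DT libraries, 0.539 and 0.561 in RSeT libraries, and 0.669 and 0.551 in primed libraries, with RSeT+DT lowest and the other groups overlapping. LTR53-int per LTR53 was 0.454 and 0.415 in RSeT+DT libraries, 0.427 and 0.400 in RSeT libraries, and 0.346 and 0.320 in primed libraries. Internal regions did not move as one against their LTRs. The 24 pairs are not independent, since ERVL47-int, HERVL18-int, MER68-int, MER70-int and HERVL74-int were each set against several LTRs. No background of such ratios over other repeats was taken. Of these pairs, ratios in RSeT against primed cells were higher without overlap in 8, lower in 10 and overlapping in 6. In RSeT+DT against RSeT they were higher in 7, lower in 6 and overlapping in 11, and in RSeT+DT against primed cells higher in 10, lower in 10 and overlapping in 4. With 2 libraries against 2, the smallest p of a two-sided exact permutation test is 0.333, so these ratios have no test.

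Sister LTRs with the same number but another letter also moved apart. These 6 pairs were chosen after their values were seen and are given as a description. LTR80B per LTR80A was 2.05 and 2.47 in RSeT+DT libraries, 2.08 and 1.73 in RSeT libraries, and 0.507 and 0.581 in primed libraries, so both groups in RSeT medium lay above both primed libraries. MER74C per MER74B was 0.171 and 0.147 in RSeT+DT libraries, 0.168 and 0.158 in RSeT libraries, and 0.0839 and 0.0802 in primed libraries. LTR18A per LTR18C was 6.35 and 4.83 in RSeT+DT libraries, 6.96 and 7.21 in RSeT libraries, and 3.17 and 2.33 in primed libraries. MER77 per MER77B was 1.95 and 1.93 in RSeT+DT libraries, 1.53 and 1.58 in RSeT libraries, and 1.18 and 1.18 in primed libraries, with all 3 groups apart. MER54A per MER54B was 7.69 and 8.01 in RSeT+DT libraries, 6.74 and 7.06 in RSeT libraries, and 4.86 and 4.47 in primed libraries, also with all 3 groups apart. The sixth pair, LTR47B4 per LTR47B, was 7.69 and 5.30 in RSeT+DT libraries, 4.55 and 4.32 in RSeT libraries, and 1.37 and 2.09 in primed libraries.

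**Figure D4:**
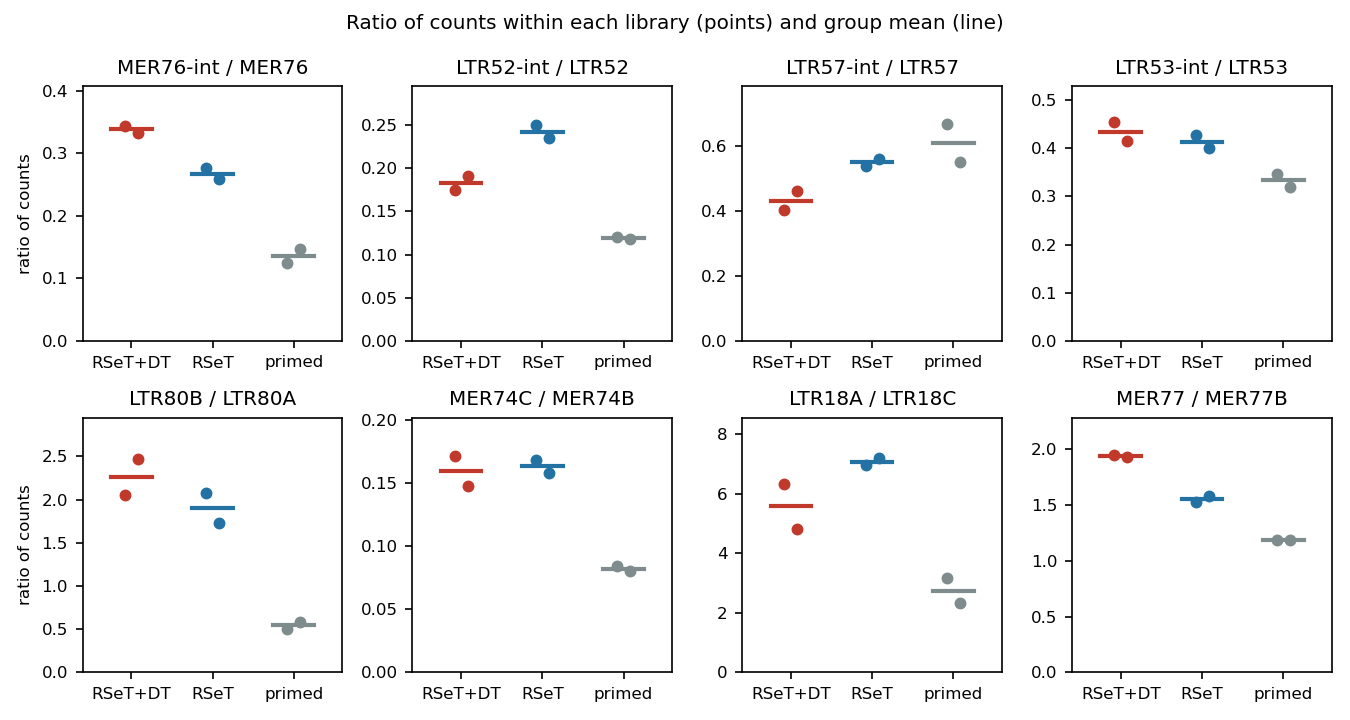
Ratio of counts within each library (y axis, from 0) for 4 internal regions over the LTR of the same number (top) and 4 pairs of sister LTRs (bottom) in RSeT+DT, RSeT and primed libraries, with points for the 2 libraries and a line for the mean. MER76-int over MER76 and MER77 over MER77B step down between RSeT+DT, RSeT and primed libraries, and LTR80B over LTR80A is 0.507 and 0.581 in primed libraries against 1.73 or more elsewhere.

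Across the 3 groups under TMM, 22 members were higher in RSeT than in primed cells and lower in RSeT+DT than in RSeT cells, and 15 were higher in RSeT than in primed cells with no call between RSeT+DT and RSeT. These are 26.2% and 17.9% of the members, against 32.0% and 15.6% of interspersed repeats and 9.24% and 9.54% of all tested features. The first set includes ERVL-B4-int, ERVL-E-int, MLT2B1, MLT2D and LTR55, and the second LTR80B, MER76-int, MER74C, MER77 and MLT2F. MER54A alone was higher in both steps, and LTR16D2 and LTR57-int were lower in both. Among interspersed repeats 3.26% were higher in both and 2.99% lower in both. A further 21 had no call between RSeT and primed cells and were lower in RSeT+DT than in RSeT cells, 7 were lower in RSeT than in primed cells with no call in the other step, and 16 had no call in either. The shares of these 3 sets were 25.0%, 8.33% and 19.0% of the members, against 19.7%, 4.14% and 20.1% of interspersed repeats and 6.99%, 12.1% and 35.9% of all tested features. The RSeT libraries enter both steps with opposite sign, so these counts cannot be read as independent responses.

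The younger relatives outside the rule gave similar values in part. HERVL-int had 534.8 and 558.9 CPM in RSeT+DT libraries, 747.7 and 774.8 CPM in RSeT libraries, and 633.6 and 663.9 CPM in primed libraries, and MLT2A2 had 400.5 and 394.2 CPM in RSeT+DT libraries, 439.5 and 448.6 CPM in RSeT libraries, and 351.3 and 357.4 CPM in primed libraries. ERVL-int had 65.1 and 68.6 CPM in RSeT+DT libraries, 75.4 and 76.4 CPM in RSeT libraries, and 60.4 and 63.0 CPM in primed libraries. MLT2A1 had 195.8 and 198.4 CPM in RSeT+DT libraries, 251.7 and 266.6 CPM in RSeT libraries, and 242.7 and 255.2 CPM in primed libraries, the last 2 groups overlapping. All 4 relatives were higher in RSeT than in primed cells under TMM, with a median of 0.40 against 0.12 for the older members. With interspersed scaling 3 of 4 were higher and 0 lower there, with a median of 0.24 against -0.04 for the older members. Under TMM 2 of 4 were lower in RSeT+DT than in RSeT cells. With interspersed scaling 2 of the relatives were higher and 1 lower in RSeT+DT than in RSeT cells. A difference between these lists was not tested. Other old repeats are given beside the older ERVL names under TMM. Of these 84 names, 45 (53.6%) were lower and 1 (1.19%) higher in RSeT+DT against RSeT. In RSeT against primed cells 38 (45.2%) were higher and 9 (10.7%) lower. The background in RSeT+DT against RSeT was 54.7% lower and 5.55% higher among interspersed repeats, and 17.4% lower and 25.0% higher among all tested features. In RSeT against primed cells it was 50.8% higher and 8.01% lower, and 22.8% higher and 23.8% lower, in the same order. Of 80 tested MaLR elements, a related LTR family, 60 were lower and 1 higher in RSeT+DT against RSeT, and 40 were higher and 3 lower in RSeT against primed cells. Of 51 hAT transposons, 39 (76.5%) were lower and 2 (3.92%) higher in RSeT+DT against RSeT. In RSeT against primed cells 22 of them (43.1%) were higher and 2 (3.92%) lower. Of 12 MIR and L2 names, 9 were lower and none higher in RSeT+DT against RSeT, and none was higher and 2 were lower in RSeT against primed cells. The directions in RSeT+DT against RSeT depended on the scaling here too, with 13 of 79 MaLR names higher and 9 lower, 8 hAT names higher and 16 lower, and 2 MIR and L2 names higher and none lower with interspersed scaling. So did those of MaLR names in RSeT against primed cells. With interspersed scaling 17 of 79 were higher and 24 lower there, beside 13 higher and 26 lower of the 84 older ERVL names. Reads of host transcripts that run through old copies enter all these counts, and their part in the results was not tested.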

How the data were processed

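Total RNA of 6 H9 libraries was prepared with a stranded total RNA kit, per the labels' protocols. The authors deposited raw counts per repeat name and a CPM table, whose values equal counts per summed repeat counts within 0.00442 CPM. The submitters' processing notes name GRCh38/hg38, STAR 2.7.8a, Trimmomatic 0.39, Subread 2.14.2 and featureCounts. What each did, the repeat annotation, the strand setting and the handling of reads with many matches were not stated in the sources. A count sums all copies of a name, so it has no coordinates, and related subfamilies can share reads.

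Counts were tested with edgeR 4.0.16 (R 4.3.3; quasi-likelihood, TMM, group as the only term, filterByExpr at 10 counts and a total of 15), with Benjamini-Hochberg adjustment over 4665 features at 0.05. Libraries of a group varied by 5.49% (common biological coefficient of variation; 3 residual degrees of freedom). The test was also run on simulated counts with changes of random sign. Those counts hold no shift shared by most interspersed repeats, so they say nothing on the choice of scaling. Members and lists were chosen with earlier results of these data known. Members to be named were all internal regions, all MLT2 names and LTRs sharing a number with an internal region. Per comparison they were also the 10 largest rises and falls among calls with a mean count of at least 50 and no overlap in CPM. LTR16, LTR16A and LTR33 were added after their values were seen. LTR18B, LTR47A2, LTR47B2, LTR47B3, LTR53B, MER68B and MER70B are given no values here. Not every other name has a value in each comparison. Alternatives were other scalings, filters, DESeq2 1.42.0, limma 3.58.1 on log2 CPM, a replicate block and each library left out.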

Additional observations from a re-analysis of the deposited data

How the results depend on the processing

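The scaling and the 2-fold minimum both moved the counts of calls. With library totals, limma on log2(CPM + 1), limma on log2(CPM + 0.1) and a 2-fold minimum, the members higher in RSeT+DT against RSeT numbered 0, 0, 0 and 0 instead of 1, and with interspersed scaling 21. Those lower numbered 3 with interspersed scaling and 0 with the 2-fold minimum, instead of 45. In RSeT against primed cells, members higher numbered 14 with library totals, 13 with interspersed scaling, 15 and 14 with limma at a pseudocount of 1 and 0.1, and 3 with the 2-fold minimum, instead of 38. Those lower numbered 15 with library totals, 26 with interspersed scaling, 5 with DESeq2 and 1 with the 2-fold minimum, instead of 9. In RSeT+DT against primed cells, members higher numbered 5 with library totals, 24 with interspersed scaling, 9 with a mean count of at least 50, 5 and 6 with limma at a pseudocount of 1 and 0.1, and 2 with the 2-fold minimum, instead of 14. Those lower numbered 57 with library totals and with both limma fits, and 1 with the 2-fold minimum, instead of 28. Library totals moved the median fold change of all features by -0.29 in this comparison, a shift that the 57 includes. No share over other repeats is given here for library totals, limma, DESeq2 or the filter on mean count. Their counts therefore describe the settings and not the members. Both limma fits used the deposited CPM, which is scaled to library totals, so their counts are not independent of those with library totals. The cause of these moves was not tested beyond the shift of the median that each scaling brings and the stricter criterion of the 2-fold minimum. With each library left out in turn, lower calls in RSeT+DT against RSeT ranged between 31 and 43 and higher ones stayed at 1, RSeT against primed cells had 26 to 43 higher and 6 to 9 lower, and RSeT+DT against primed cells had 12 to 16 higher and 21 to 27 lower.

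These log2 fold changes changed sign. With interspersed scaling in RSeT+DT against RSeT, ERVL-B4-int lay at 0.037, HERVL18-int at 0.022, MER68-int at 0.00023, MER70A at 0.20, MER74A at 0.017, MER74B at 0.16, MER76 at 0.016, MLT2B3 at 0.11 and MLT2F at 0.22. With the same scaling in RSeT against primed cells, HERVL40-int lay at -0.059, LTR52 at -0.14, MER68 at -0.14, MLT2B4 at -0.095, MLT2C1 at -0.14 and MLT2D at -0.038. With library totals and limma at a pseudocount of 1 and of 0.1, HERVL40-int lay at -0.027, -0.025 and -0.025 and MLT2D at -0.0088, -0.0070 and -0.0071 in RSeT against primed cells. With the same 3 settings in RSeT+DT against primed cells, ERVL-B4-int lay at -0.096, -0.096 and -0.096, LTR47A at -0.039, -0.036 and -0.037, LTR52 at -0.24, -0.24 and -0.24, MLT2B1 at -0.23, -0.23 and -0.23, MLT2B3 at -0.20, -0.20 and -0.20, and MLT2F at -0.030, -0.028 and -0.028.

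The summed share of the members stood at 1.11% for RSeT+DT, 1.21% for RSeT and 1.39% for primed cells against interspersed repeats and satellites, and without the 3 members with most counts it was 0.572% of all repeat counts for RSeT+DT, 0.712% for RSeT and 0.709% for primed cells. No strong pairing by replicate number was seen. Deviations of same-numbered libraries correlated at 0.05 between RSeT+DT and RSeT, 0.0015 between RSeT and primed, and -0.04 between RSeT+DT and primed cells. These correlations run over all 4665 tested features and counting noise lowers them, so they cannot show that the libraries were unpaired. With the replicate number as a block, 1 member was higher and 44 lower in RSeT+DT against RSeT, 38 higher and 9 lower in RSeT against primed cells, and 14 higher and 28 lower in RSeT+DT against primed cells. RLE factors, no filter on low counts and a fit of the compared groups alone kept every one of these counts within 1.5 times. Members with few reads, such as LTR18C and LTR47B, have the least precise values.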
